A study of Mus musculus with 10 samples.

Results

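The genes of blood clotting and clot dissolution were followed in mouse liver. They are 36 of the 55291 genes in the deposited table, chosen by symbol because they encode the clotting factors, the fibrinogen chains, the anticoagulants and the plasminogen system, together with the vitamin K enzymes and the vessel wall proteins that work with them. All 36 were found in the table and all 36 were abundant enough to be tested.

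Bulk RNA-seq was made from the right liver lobe of female Cas9 Lox-Stop-Lox mice aged 16 to 20 weeks, in which a Cas9 gene stays silent until Cre removes a stop sequence. All mice received 1e12 particles of an AAV8 virus that carries a guide RNA and Cre under the TBG promoter, which is active in hepatocytes, so that controls carry the virus, Cre and Cas9 as well. The guide targeted either Bap1, a deubiquitinase (sgBap1), or no mouse gene (NTC). On day 10 the mice were injected with 10 µL/g of olive oil holding 1 part carbon tetrachloride (CCl4) to 9 parts oil, or of olive oil alone (Veh), and livers were taken 48 hours later. The vehicle groups (NTC-Veh and sgBap1-Veh) held 2 mice each and the toxin groups (NTC-CCl4 and sgBap1-CCl4) 3 each. CCl4 is a toxin that hepatocytes around the central vein turn into a radical that kills them.

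Most plasma clotting proteins are made and secreted by hepatocytes. Tissue factor with factor VII starts a cascade of proteases that ends with thrombin (F2), which cuts fibrinogen into fibrin, and factor XIII links the fibrin strands. Antithrombin, protein C and the tissue factor pathway inhibitor hold the cascade back, and plasmin, released from plasminogen by the activators Plat and Plau, dissolves the clot. Factor VIII, von Willebrand factor, thrombomodulin and the protein C receptor come largely from endothelial cells, and the plasminogen activators and their receptor from endothelial cells and leukocytes.

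Libraries held 3.3e+07 to 5.22e+07 estimated reads. Bap1 fell in sgBap1 livers to 17.6 and 19.5 CPM from 34.8 in both NTC-Veh mice (log2 fold change −0.91, SE 0.12, adjusted p = 0.0172), and to 17.0, 21.8 and 19.1 CPM from 29.5 to 31.5 CPM under CCl4 (−0.65, SE 0.10, adjusted p = 0.0307). CPM here are counts per 1000000 on libraries scaled by TMM, and every adjusted p comes from edgeR's quasi-likelihood test with Benjamini-Hochberg adjustment over 17015 genes. Hepatocyte markers were abundant in every liver, and their summed level was 109000 to 150000 CPM in vehicle and 68200 to 87600 CPM in CCl4 livers. Albumin (Alb, 55000 to 116000 CPM) made up most of this sum. All 7 markers had a negative log2 fold change after CCl4, but 5 were called lower in NTC and 2 in sgBap1 livers. Hnf4a and Apob were called in neither genotype. The part of the lower hepatocyte markers in the falls given below was not tested. One library stood apart: sgBap1-CCl4 replicate 2 had 71.2 CPM of the adipocyte markers Adipoq, Plin1 and Lep, against at most 0.0638 CPM in any other mouse, the largest summed stellate cell markers (784 CPM, against 363 to 456 CPM in the other CCl4 mice) and the smallest summed hepatocyte markers. Its stellate sum was raised mainly by Col1a1 (402 CPM, against 71.3 to 143 CPM in the other CCl4 mice). The stellate markers Lrat and Reln lay within the range of those mice. In this mouse 23 of the 36 genes were at their lowest among the 6 CCl4 mice and 8 at their highest, so counts are given with and without it.

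CCl4 moved the clotting genes in both directions. In NTC livers 10 of the 36 genes rose and 20 fell, and in sgBap1 livers 11 rose and 21 fell. Most secreted hepatocyte factors fell to between 0.28 and 0.74 of their vehicle level in NTC livers, from plasma prekallikrein (Klkb1) at the low end to the plasmin inhibitor Serpinf2 at the high end, while the 3 fibrinogen genes did not fall in either genotype. Factor XIII A (F13a1), the urokinase receptor (Plaur), urokinase (Plau), tissue plasminogen activator (Plat), thrombomodulin (Thbd) and the protein C receptor (Procr) rose between 6.81-fold and 42-fold in NTC livers. Between sgBap1 and NTC livers of the same treatment no gene of the 36 passed the test. Few of all genes did, at 0.523% in vehicle and 0.253% in CCl4 livers.

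These counts are read against those over all genes, of which CCl4 changed 53.8% in NTC livers (27.5% higher and 26.3% lower) and 56.7% in sgBap1 livers (29% higher and 27.7% lower). The 36 genes were thus called more often than the average gene and more often lower, a description and not a test. The excess was among the lower calls, since the 10 (NTC) and 11 (sgBap1) higher calls lie near the share of all genes called higher. The median log2 fold change of the 36 was −0.58 in NTC and −0.56 in sgBap1 livers, against 0.03 and 0.04 over all genes. Without sgBap1-CCl4 replicate 2 the counts were 11 higher and 20 lower in NTC and 11 higher and 19 lower in sgBap1 livers. In the NTC comparison 22 of the 30 calls, and in the sgBap1 comparison 24 of the 32, held under every alternative fit and with every mouse left out in turn. Scaling by library size alone in place of TMM raised the median of all genes by CCl4 to 0.50 in NTC and 0.52 in sgBap1 livers and the higher share of all calls from 51.1% to 80.7% in NTC livers and from 51.2% to 78.5% in sgBap1 livers. With that scaling 14 of the 36 genes were called higher and 16 lower in NTC livers, and 13 higher and 17 lower in sgBap1 livers. In a bulk sample fewer cells of a type and less RNA per cell cannot be told apart.

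**Figure D1:**
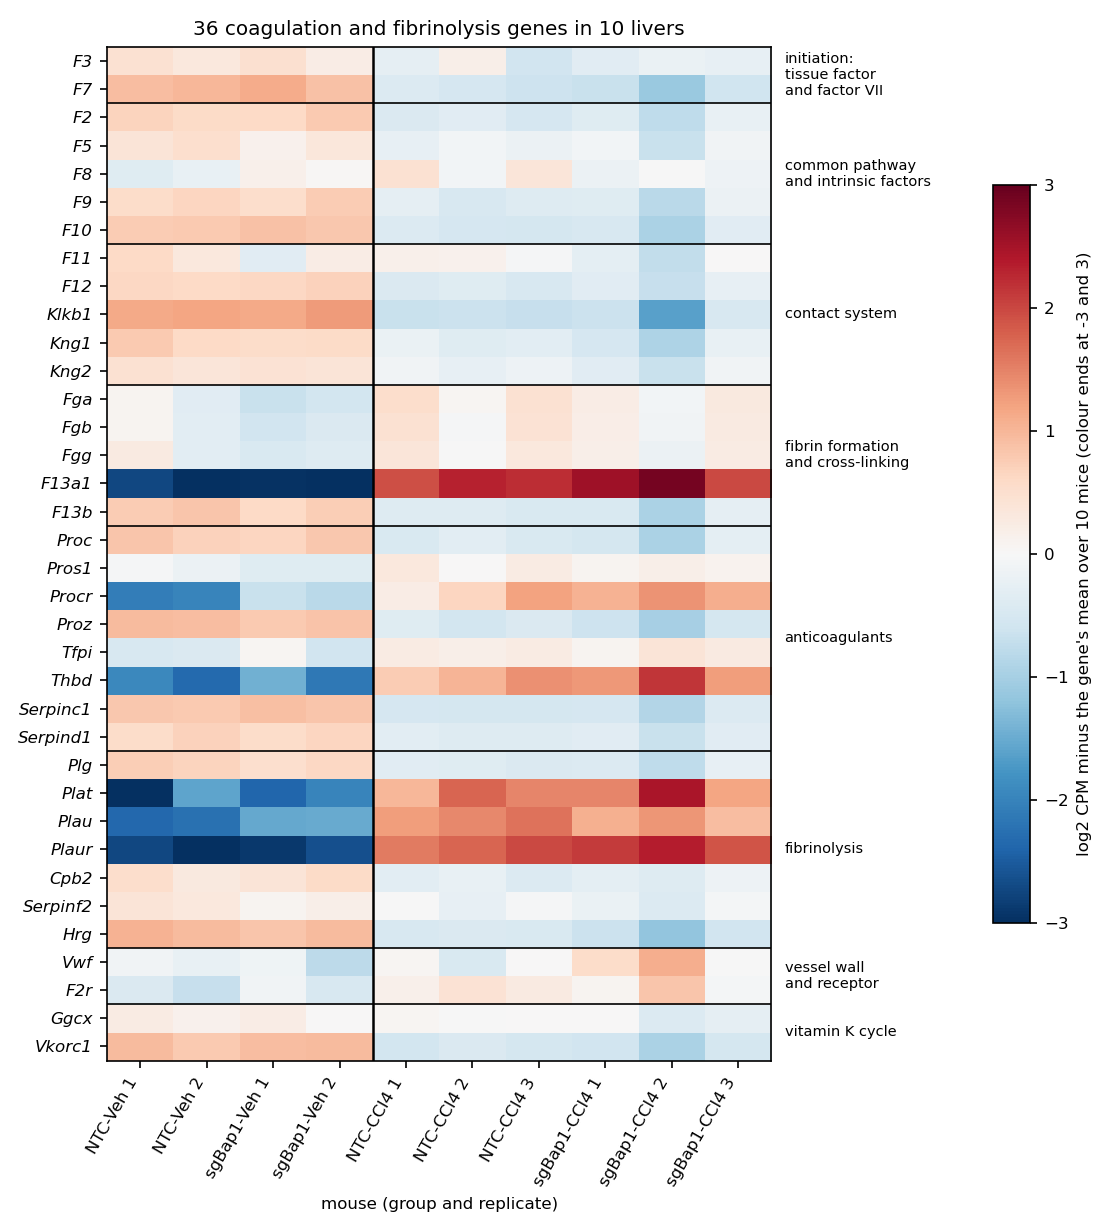
Level of each of the 36 genes (rows, grouped by role) in each of the 10 mice (columns, vehicle left of the line and CCl4 right of it), as log2 CPM minus the mean of that gene over the 10 mice. Most rows turn from above to below their mean with CCl4, whereas F13a1, Plaur, Plau, Plat, Thbd and Procr turn the other way and the 3 fibrinogen rows stay near or rise above their mean.

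On a scale of CPM per kb of exon, the 36 genes spanned from 1997 ± 415 (SD, n = 2) for Fga to 0.063 ± 0.037 for F13a1 in NTC-Veh livers. The fibrinogen chains stood highest, with Fgg at 1979 ± 574 and Fgb at 1337 ± 268 CPM per kb. Fga and Fgg did not differ beyond their spread, and Fgb overlapped both within 1 SD of each. The kininogen gene Kng1 (1041 ± 95.5) and plasminogen (Plg, 899 ± 29.9) followed, then Hrg (722 ± 33.0), Serpinf2 (489 ± 16.7) and prothrombin (F2, 471 ± 24.5), the last pair within their spread. At the low end stood genes of endothelial cells and leukocytes, with Vwf at 0.49 ± 0.026, Procr at 0.33 ± 0.014, Plaur at 0.19 ± 0.057 and Plat at 0.077 ± 0.060 CPM per kb. In NTC-CCl4 livers the chains kept the first 3 places (Fga 2794 ± 472, Fgg 2314 ± 318, Fgb 1773 ± 321), and Kng1 had 523 ± 29.8 CPM per kb.

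Together the 36 genes took 2.76% and 3.01% of all counts in the NTC-Veh mice, 2.48% and 2.55% in the sgBap1-Veh mice, and under CCl4 2.94% to 3.67% with NTC and 2.76% to 3.24% with sgBap1. The 3 fibrinogen chains alone took 0.899% to 1.39% in vehicle mice and 1.82% to 2.52% in CCl4 mice, with no overlap. The other 33 genes went the opposite way, from 1.58% to 1.67% in vehicle mice to 0.919% to 1.15% in CCl4 mice, again with no overlap. These are shares of the raw counts. Each of the 3 chains overlapped between vehicle and CCl4 mice on the TMM scale, as Fga with 4078 to 6894 against 6189 to 9440 CPM. On TMM-scaled libraries the share of the 36 genes was lower after CCl4, at 3.54% in NTC and 3.06% in sgBap1 vehicle mice and 2.99% and 2.68% in CCl4 mice.

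**Figure D2:**
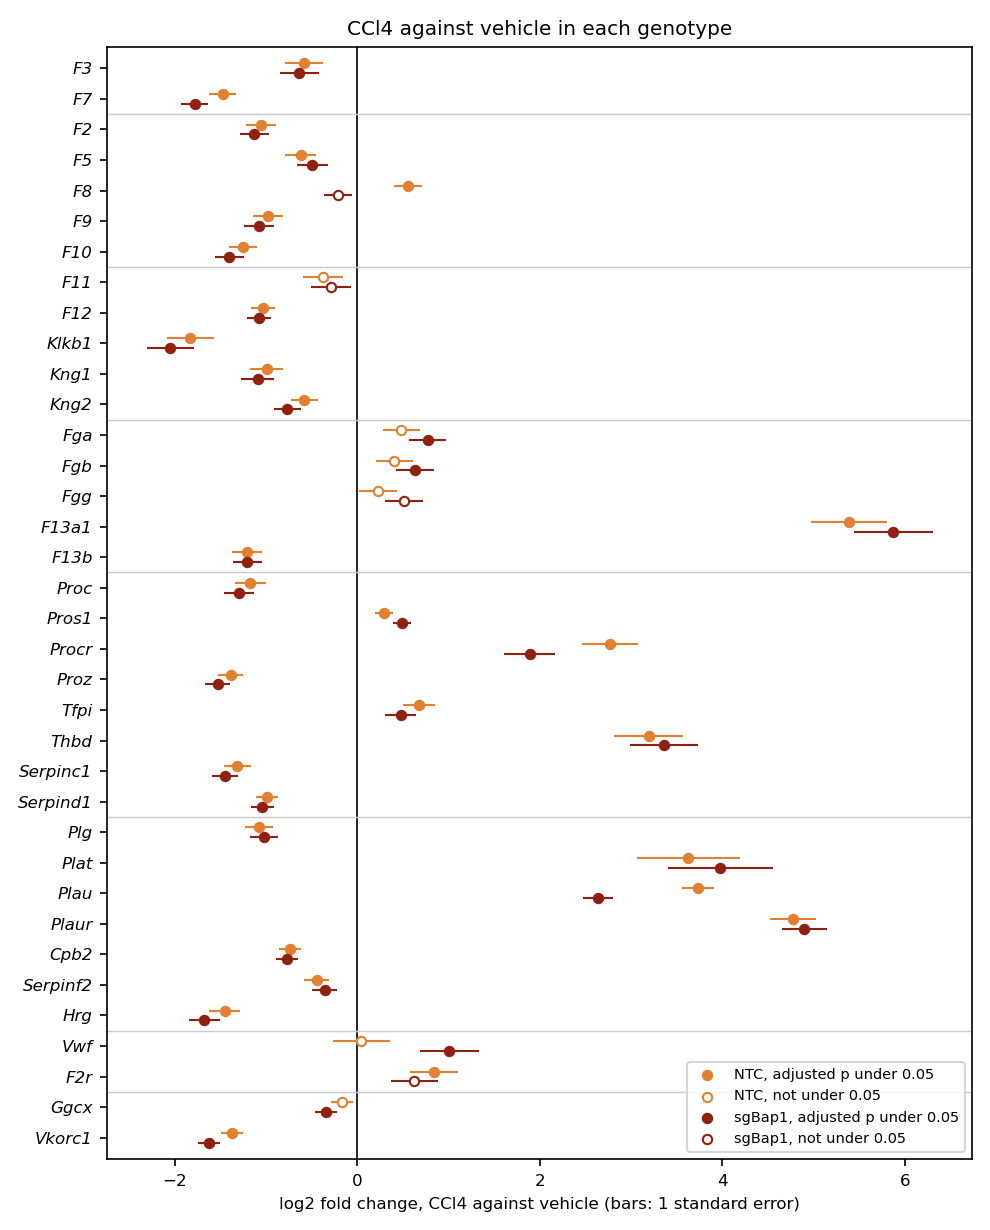
Log2 fold change of CCl4 against vehicle for the 36 genes in NTC (orange) and sgBap1 (dark red) livers, with bars of 1 standard error, where filled points have an adjusted p under 0.05. The points of both genotypes lie close together for most genes, from −1.83 and −2.05 for Klkb1 to 5.39 and 5.87 for F13a1, and lie on opposite sides of 0 for F8, while with library size alone both points of F8, F11, Serpinf2 and Ggcx lie above 0.

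Initiation was lower after CCl4 in both its members. Tissue factor (F3), the cell surface receptor that starts clotting, was scarce, with 5.26 and 4.77 CPM in the NTC-Veh mice and 5.33 and 4.49 CPM in the sgBap1-Veh mice. It had 3.16, 4.28 and 2.58 CPM in NTC-CCl4 and 3.00, 3.30 and 3.21 CPM in sgBap1-CCl4 mice, below every vehicle mouse. The fall of 0.58 on the log2 scale in NTC (SE 0.21, adjusted p = 0.0369) and 0.63 in sgBap1 livers (SE 0.21, adjusted p = 0.0247) was among the least firm, and the call was lost in NTC livers without either NTC-Veh mouse, NTC-CCl4 replicate 1 or 3 or sgBap1-CCl4 replicate 1 (adjusted p up to 0.164). In sgBap1 livers it was lost without sgBap1-Veh replicate 1 (log2 fold change −0.50) or sgBap1-CCl4 replicate 1. In both genotypes it was lost with library size alone (log2 fold change −0.11 and −0.15) and with the replicate number as a block (adjusted p = 0.0916 and 0.078). The NTC call was also lost without a filter on low counts (0.0567) and in the fit of the compared groups alone (0.063).

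Factor VII (F7), its plasma partner, stood at 160.1 and 169 CPM in the NTC-Veh mice and 182 and 156 CPM in the sgBap1-Veh mice. After CCl4 it had 63.6, 59.2 and 54.9 CPM in NTC and 52.7, 38.8 and 55.7 CPM in sgBap1 mice. The groups were far apart, and F7 fell by 1.48 on the log2 scale (SE 0.14, adjusted p = 1.74e-05) in NTC and 1.78 in sgBap1 livers (SE 0.14, adjusted p = 5.43e-06). F7 lies on chromosome 8 of GRCm38 (13026034 to 13035809, + strand), 1498 bases before F10 and in one row with Proz, all 3 on the + strand and with no other coding gene between neighbours. F10 and Proz, given below, fell by similar amounts.

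Among the proteases and cofactors of the cascade, prothrombin (F2), factor V (F5), factor IX (F9) and factor X (F10) fell in both genotypes and factor VIII (F8) did not. Prothrombin, the most abundant, had 2245 and 2086 CPM in NTC-Veh mice, 2140 and 2405 in sgBap1-Veh, 1032, 1112 and 984 in NTC-CCl4 and 1099, 828 and 1195 CPM in sgBap1-CCl4 mice. No CCl4 mouse reached a vehicle mouse, and the log2 fold changes were −1.06 (SE 0.16, adjusted p = 0.000311) in NTC and −1.13 (SE 0.16, adjusted p = 0.000185) in sgBap1 livers. F10, the protease that cuts prothrombin, went from 549 to 592 CPM in vehicle to 169 to 256 CPM in CCl4 mice, a log2 fold change of −1.25 in NTC (SE 0.16, adjusted p = 7.7e-05) and −1.40 in sgBap1 livers (SE 0.16, adjusted p = 3.51e-05). F9, which activates factor X with factor VIII, went from 247 to 293 CPM to 98.6 to 152 CPM, with log2 fold changes of −0.98 and −1.08.

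F5, the cofactor of factor X, fell less. It had 627 to 817 CPM in vehicle and 363 to 545 CPM in CCl4 mice, without overlap, and log2 fold changes of −0.62 (SE 0.17, adjusted p = 0.0104) in NTC and −0.49 (SE 0.17, adjusted p = 0.0296) in sgBap1 livers. The call was lost in sgBap1 livers without sgBap1-Veh replicate 1 (log2 fold change −0.59) or replicate 2 (−0.39), and in NTC livers without NTC-Veh replicate 2 (−0.56). With library size alone it was lost in both (log2 fold change −0.15 and −0.02). In sgBap1 livers the fit of the compared groups alone (adjusted p = 0.0829) and the replicate block (0.05) lost it too.

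Factor VIII, the cofactor missing in haemophilia A, followed another course. It had 8.36 and 9.20 CPM in NTC-Veh mice, 11.8 and 11.04 in sgBap1-Veh, 14.7, 10.2 and 13.8 in NTC-CCl4 and 9.43, 10.6 and 9.65 CPM in sgBap1-CCl4 mice. All NTC-CCl4 mice lay above the NTC-Veh mice, and all sgBap1-CCl4 mice lay below the sgBap1-Veh mice. In NTC livers the rise was 0.55 on the log2 scale (SE 0.15, adjusted p = 0.0113), lost without NTC-Veh replicate 1 (0.49, adjusted p = 0.0853), and in sgBap1 livers the log2 fold change was −0.21 (SE 0.15, adjusted p = 0.255). The difference between these responses, −0.77 (SE 0.22), had an unadjusted p of 0.00497 and an adjusted p of 0.21, so it did not pass the test. With library size alone F8 stood 0.27 higher after CCl4 in sgBap1 livers.

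The contact system, which starts clotting on charged surfaces and releases bradykinin, fell in 4 of its 5 genes in both genotypes. Plasma prekallikrein (Klkb1) showed the largest fall of all 36 genes. Its levels were 437 and 456 CPM in NTC-Veh mice, 441 and 484 in sgBap1-Veh, 125, 129 and 123 in NTC-CCl4 and 127, 64.9 and 144 CPM in sgBap1-CCl4 mice. The log2 fold changes were −1.83 (SE 0.26, adjusted p = 0.000252) in NTC and −2.05 (SE 0.26, adjusted p = 0.000116) in sgBap1 livers. Of the stretches of 50 bases in Klkb1, 42.7% also occur in the overlapping model Gm45753, so its absolute level is uncertain.

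Factor XII (F12) went from 537 to 574 CPM to 219 to 298 CPM, with log2 fold changes of −1.03 and −1.08 (SE 0.13 in both). The kininogens Kng1 and Kng2, the bradykinin precursors, both fell, and the size of their falls was not compared by a test. Kng1 went from 3067 to 3602 CPM to 1104 to 1807 CPM (log2 fold change −0.99 and −1.09, SE 0.18), and Kng2 from 404 to 429 CPM to 197 to 290 CPM (−0.58 and −0.77, SE 0.15). The NTC call of Kng2 was lost with library size alone (−0.10, adjusted p = 0.464). They share sequence with each other (17.2% of the stretches of 50 bases in Kng1 and 19.4% in Kng2), so reads could be split between them.

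Factor XI (F11) was not called. It lies 4657 bases from Klkb1 on chromosome 8, in the same orientation. Its levels were 152 and 126 CPM in NTC-Veh mice, 80.1 and 119 in sgBap1-Veh, 112, 111 and 98.8 in NTC-CCl4 and 82.5, 60.6 and 102 CPM in sgBap1-CCl4 mice. The sgBap1-Veh mice already overlapped the CCl4 mice. Its log2 fold change was −0.38 in NTC (SE 0.22, adjusted p = 0.171) and −0.29 in sgBap1 livers (SE 0.22, adjusted p = 0.287), which did not pass. A fit of the NTC mice alone called it lower (−0.38, adjusted p = 0.0198, over all alternatives from 0.0198 to 0.625), and with library size alone it stood above 0 (0.10 and 0.18).

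Fibrinogen, the substrate of the clot and a classical acute phase protein of the liver, did not fall in either genotype. Its 3 chains are encoded next to each other on chromosome 3 of GRCm38, as Fgg (83007724 to 83015049, + strand), Fga (83026076 to 83033627, + strand) and Fgb (83040141 to 83049863, − strand). The 250 bases before the RefSeq start site of each (GRCm38.p6) are shown because the chains moved together. Capitals mark the matches on either strand to TTCNNNGAA, a motif of STAT factors, to TTGCNNAA, one of C/EBP factors, or to TGANTCA, one of AP-1.
Fga, chr3:83025903-83026152, + strand: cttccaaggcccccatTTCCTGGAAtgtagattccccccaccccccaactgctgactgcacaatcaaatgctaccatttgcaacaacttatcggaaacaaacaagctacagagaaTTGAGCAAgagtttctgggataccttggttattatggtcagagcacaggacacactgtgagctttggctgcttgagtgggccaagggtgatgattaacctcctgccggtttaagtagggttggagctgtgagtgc
Fgb, chr3:83049864-83050113, − strand: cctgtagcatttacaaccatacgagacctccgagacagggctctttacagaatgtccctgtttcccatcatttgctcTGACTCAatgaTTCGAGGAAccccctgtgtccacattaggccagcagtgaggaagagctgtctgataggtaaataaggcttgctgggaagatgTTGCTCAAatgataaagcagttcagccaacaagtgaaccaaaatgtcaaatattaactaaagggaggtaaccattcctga
Fgg, chr3:83007474-83007723, + strand: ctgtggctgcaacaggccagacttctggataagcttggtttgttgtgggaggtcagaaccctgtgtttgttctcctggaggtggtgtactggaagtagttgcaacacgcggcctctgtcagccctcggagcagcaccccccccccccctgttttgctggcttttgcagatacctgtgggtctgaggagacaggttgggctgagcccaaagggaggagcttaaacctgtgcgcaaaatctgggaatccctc
Fga has a STAT match that begins 234 bases before the start site and a C/EBP match at 135 bases. Fgb has an AP-1 match at 173 bases, a STAT match at 162 and a C/EBP match at 80, none of which overlap. Fgg has no match to these letters in this window. In windows of 250 bases before to 50 bases after the start, RefSeq had 31 promoters for 29 of the 36 genes, with no entry for Plat, Plg, Thbd, Kng1, Vwf, Plau and Proc. The C/EBP letters occurred in 12 of the 31 (38.7%, against 10.8% of all 32817 promoters), those of AP-1 in 7 (22.6% against 7.81%) and those of STAT in 4 (12.9% against 8.29%). The letters of an HNF1 motif and the HNF4 letters CAAAGTCCA occurred in none, and in 0.122% and 0.475% of all promoters. These are matches of letters in a window and were not set against any binding data.

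Fga had 6894 and 5126 CPM in NTC-Veh mice, 4078 and 4439 in sgBap1-Veh, 9440 (the highest of all mice), 6788 and 8998 in NTC-CCl4 and 7634, 6189 and 7989 CPM in sgBap1-CCl4 mice. The NTC groups overlapped by 1 mouse on each side, whereas the sgBap1 groups were apart. In NTC livers the log2 fold change was 0.49 (SE 0.20, adjusted p = 0.0624) and did not pass, though it did without NTC-Veh replicate 1 (0.71, adjusted p = 0.0439), NTC-CCl4 replicate 2 (0.62, 0.0256) or sgBap1-CCl4 replicate 2 (0.49, 0.0327), over a range of 0.000418 to 0.374 in all alternatives. In sgBap1 livers Fga rose by 0.77 (SE 0.20, adjusted p = 0.00776), a call lost without sgBap1-Veh replicate 1 (0.72, adjusted p = 0.0604).

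Fgb had 5815 and 4372 CPM in NTC-Veh mice, 3676 and 4052 in sgBap1-Veh, 7562, 5346 and 7353 in NTC-CCl4 and 6288, 5103 and 6582 CPM in sgBap1-CCl4 mice. It ran in parallel with Fga, at an Fga to Fgb count ratio of 1.1 to 1.27 over the 10 mice. The log2 fold change was 0.41 in NTC (SE 0.20, adjusted p = 0.113) and 0.63 in sgBap1 livers (SE 0.20, adjusted p = 0.0216), the latter lost without either sgBap1-Veh mouse or without sgBap1-CCl4 replicate 1 or 3, at adjusted p from 0.0572 to 0.123.

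Fgg had 4991 and 3293 CPM in NTC-Veh mice, 3001 and 3136 in sgBap1-Veh, 5283, 4079 and 5170 in NTC-CCl4 and 4635, 3651 and 4874 CPM in sgBap1-CCl4 mice. Its log2 fold changes, 0.23 (SE 0.21, adjusted p = 0.386) in NTC and 0.52 (SE 0.21, adjusted p = 0.0569) in sgBap1 livers, did not pass. Without sgBap1-CCl4 replicate 2 the sgBap1 value was 0.63 (adjusted p = 0.0195), and it also passed without either NTC-Veh mouse. With library size alone all 3 chains were called higher in NTC livers as well, by 0.97, 0.89 and 0.71. The responses of the 2 genotypes were not shown to differ, with interaction values of 0.23 to 0.29 and adjusted p of 0.794 to 0.845.

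**Figure D3:**
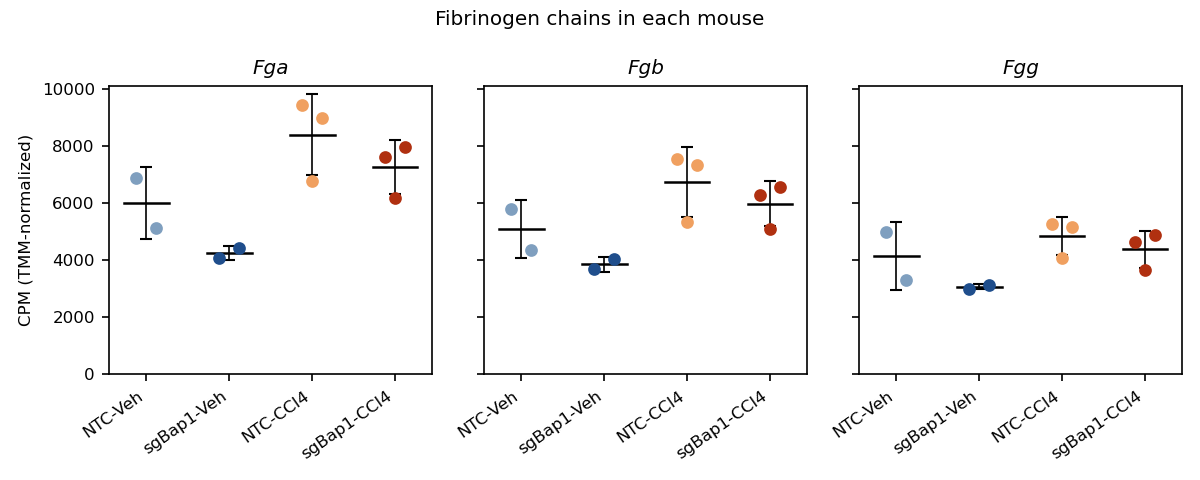
CPM of Fga, Fgb and Fgg in each mouse (points) of the 4 groups, with the group mean (long line) and 1 SD (bars) on axes that start at 0. The sgBap1-Veh mice are the lowest for all 3 chains (Fga 4078 and 4439, Fgg 3001 and 3136 CPM), while the NTC-Veh mice overlap the CCl4 mice for all 3 chains.

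Factor XIII, which cross-links fibrin, showed opposite changes in its subunits. F13a1, the catalytic subunit, known in macrophages and platelets, had 0.599 and 0.249 CPM in the NTC-Veh mice and 0.511 and 0.225 CPM in the sgBap1-Veh mice. After CCl4 it reached 15.4, 19.9 and 18.6 CPM in NTC and 23.3, 29.4 and 15.8 CPM in sgBap1 mice. This was the largest rise of the 36 genes, 5.39 on the log2 scale in NTC (SE 0.42, adjusted p = 8.56e-06) and 5.87 in sgBap1 livers (SE 0.43, adjusted p = 6.1e-06), or 42-fold and 58.6-fold. F13b, the carrier subunit made by hepatocytes, went from 216 to 256 CPM in vehicle to 73.7 to 118 CPM in CCl4 mice, a log2 fold change of −1.21 in NTC and −1.20 in sgBap1 livers (SE 0.16 in both).

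Monocyte markers moved with F13a1. All 4 (Ccr2, Ly6c2, Chil3 and S100a4) were called higher by CCl4 in both genotypes, and their summed level was 3.74 to 7.3 CPM in vehicle and 80.5 to 109 CPM in CCl4 mice. Summed Kupffer cell and macrophage markers were 186 and 281 CPM in NTC-Veh mice, 379 and 565 in sgBap1-Veh and 464 to 683 CPM in CCl4 mice. These 6 markers were divided: CCl4 raised 4 in NTC livers, and raised 2 and lowered 1 in sgBap1 livers. The lowered one was Clec4f (log2 fold change −1.29, adjusted p = 0.00169), which was not called in NTC livers (−0.25). Summed platelet markers were 3.85 to 5.19 CPM in vehicle and 8.3 to 14.1 CPM in CCl4 mice, although the platelet receptor gene Gp1bb was at 0 in 9 of the 10 mice. Neutrophil markers were 3.38 to 6.57 and 16.3 to 24.1 CPM, with Ly6g at 0 in 3 mice. The part of these cells in the rise of F13a1, and of the plasminogen activators below, was not tested.

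The anticoagulants were divided evenly, with 4 higher and 4 lower in both genotypes. Calls over all genes were divided about as evenly, with 51.1% of them higher in NTC and 51.2% in sgBap1 livers. The anticoagulants that fell were 4 plasma proteins from hepatocytes. Antithrombin (Serpinc1), the main inhibitor of thrombin and factor X, had 2598 and 2592 CPM in NTC-Veh mice, 2770 and 2678 in sgBap1-Veh, 1060, 1034 and 1039 in NTC-CCl4 and 1056, 814 and 1126 CPM in sgBap1-CCl4 mice. The replicates were close and the groups far apart, at log2 fold changes of −1.31 (SE 0.14, adjusted p = 3.62e-05) in NTC and −1.45 (SE 0.14, adjusted p = 1.85e-05) in sgBap1 livers. Heparin cofactor II (Serpind1) went from 664 to 736 CPM to 287 to 365 CPM (−0.99 and −1.04, SE 0.12). Protein C (Proc), which inactivates factors V and VIII, went from 547 to 621 CPM to 182 to 285 CPM (−1.17 and −1.30, SE 0.17). Protein Z (Proz), a cofactor in the inhibition of factor X, went from 513 to 576 CPM to 149 to 233 CPM (−1.39 and −1.53, SE 0.14).

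The anticoagulants that rose were the vessel wall receptors Thbd and Procr, the inhibitor Tfpi, and protein S (Pros1), itself a plasma protein. Thrombomodulin (Thbd), which turns thrombin into an activator of protein C, had 3.98 and 3.02 CPM in NTC-Veh mice, 5.57 and 3.41 in sgBap1-Veh, 25.8, 30.9 and 39.6 in NTC-CCl4 and 37.6, 66.8 and 35.9 CPM in sgBap1-CCl4 mice. The log2 fold changes were 3.195 (SE 0.38, adjusted p = 0.000154) in NTC and 3.36 (SE 0.38, adjusted p = 0.000105) in sgBap1 livers. The protein C receptor (Procr) had 0.653 and 0.693 CPM in NTC-Veh mice, 1.72 and 1.57 in sgBap1-Veh, 3.198, 4.32 and 6.32 in NTC-CCl4 and 5.64, 6.93 and 5.82 CPM in sgBap1-CCl4 mice. All groups but those under CCl4 were apart, and the log2 fold changes were 2.77 (SE 0.31, adjusted p = 3.71e-05) in NTC and 1.89 (SE 0.28, adjusted p = 0.000239) in sgBap1 livers. Protein C, which these receptors help to activate, fell in the same livers.

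Tissue factor pathway inhibitor (Tfpi) rose modestly, from 5.65 to 8.69 CPM in vehicle to 8.87 to 11.04 CPM in CCl4 mice. Its log2 fold change was 0.68 in NTC (SE 0.17, adjusted p = 0.00745) and 0.48 in sgBap1 livers (SE 0.17, adjusted p = 0.0364). The sgBap1 call was lost without sgBap1-CCl4 replicate 2 or 3 or NTC-CCl4 replicate 1 or 3. It was also lost without sgBap1-Veh replicate 2, where the value was lowest (0.21). The replicate block (adjusted p = 0.0794) and the fit of the compared groups alone (0.1) lost it too. In NTC livers the call was lost without NTC-Veh replicate 1 (log2 fold change 0.65). Protein S (Pros1), the cofactor of protein C, went from 52.8 to 66.0 CPM to 68.3 to 84.6 CPM, a rise of 0.30 in NTC (SE 0.10, adjusted p = 0.0261) and 0.49 in sgBap1 livers (SE 0.10, adjusted p = 0.00181). The NTC call of Pros1 was lost without NTC-Veh replicate 2 (log2 fold change 0.24) or NTC-CCl4 replicate 1 or 3, and with the replicate block (adjusted p = 0.0644).

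Endothelial markers were summed at 149 to 213 CPM in vehicle and 197 to 243 CPM in CCl4 mice. Of the 6, 3 were higher in NTC livers, and 3 were higher and 2 lower in sgBap1 livers. All 6 were present in every mouse, at 5.58 CPM or more. Their part in the changes of Thbd and Procr was not tested.

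Clot dissolution was split, with 3 genes higher and 4 lower in each genotype, a division near that of the calls over all genes. Plasminogen (Plg), the precursor of plasmin, had 3415 and 3258 CPM in NTC-Veh mice, 2918 and 3150 in sgBap1-Veh, 1630, 1596 and 1517 in NTC-CCl4 and 1541, 1216 and 1719 CPM in sgBap1-CCl4 mice. It fell by 1.08 on the log2 scale in NTC (SE 0.15, adjusted p = 0.000188) and by 1.02 in sgBap1 livers (SE 0.15, adjusted p = 0.000246). Its activators went the other way.

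Urokinase (Plau), the activator used by migrating cells, had 1.58 and 1.72 CPM in NTC-Veh mice, 2.80 and 2.84 in sgBap1-Veh, 19.3, 21.8 and 24.9 in NTC-CCl4 and 17.0, 20.4 and 15.3 CPM in sgBap1-CCl4 mice. It rose by 3.74 on the log2 scale in NTC (SE 0.18, adjusted p = 5.64e-07) and by 2.64 in sgBap1 livers (SE 0.17, adjusted p = 1.52e-06). Its receptor Plaur, which holds urokinase at the cell surface, went from 0.599 and 0.388 CPM in the NTC-Veh mice and 0.538 and 0.636 CPM in the sgBap1-Veh mice to 11.8, 13.3 and 15.7 CPM in NTC-CCl4 and 17.2, 20.5 and 14.7 CPM in sgBap1-CCl4 mice. That was a rise of 4.77 (SE 0.25, adjusted p = 8.2e-07) in NTC and 4.90 (SE 0.25, adjusted p = 5.91e-07) in sgBap1 livers.

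Tissue plasminogen activator (Plat), the activator that works on fibrin, had 0.218 and 0.748 CPM in NTC-Veh mice, 0.431 and 0.561 in sgBap1-Veh, 4.43, 7.42 and 6.12 in NTC-CCl4 and 6.10, 12.1 and 5.04 CPM in sgBap1-CCl4 mice. Its spread among vehicle mice was wide relative to its level. The groups did not overlap, with a rise of 3.63 in NTC (SE 0.57, adjusted p = 0.000533) and 3.98 in sgBap1 livers (SE 0.58, adjusted p = 0.000326). For Plat, Thbd, F13a1, Plaur and Procr the highest value of all mice was in sgBap1-CCl4 replicate 2. Their calls after CCl4 held without it and under every other alternative.

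The brakes on plasmin fell with its precursor. Hrg, a histidine-rich glycoprotein that binds plasminogen, had 1487 and 1394 CPM in NTC-Veh mice, 1293 and 1402 in sgBap1-Veh, 522, 533 and 524 in NTC-CCl4 and 463, 316 and 487 CPM in sgBap1-CCl4 mice. It fell by 1.45 (SE 0.17, adjusted p = 5.18e-05) in NTC and 1.68 (SE 0.17, adjusted p = 1.98e-05) in sgBap1 livers. Cpb2, a carboxypeptidase that protects fibrin, went from 324 to 392 CPM to 198 to 234 CPM (log2 fold change −0.74 and −0.77, SE 0.12).

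Serpinf2, the direct inhibitor of plasmin, changed least among the called genes that fell in both genotypes. It went from 949 to 1164 CPM in vehicle to 671 to 891 CPM in CCl4 mice, by −0.44 in NTC (SE 0.14, adjusted p = 0.0196) and −0.35 in sgBap1 livers (SE 0.14, adjusted p = 0.0478). Its direction turned with library size alone, to 0.04 and 0.12. The call was also lost without either NTC-Veh mouse or NTC-CCl4 replicate 2 in NTC livers and in 8 of the 10 fits with a mouse left out in sgBap1 livers. In sgBap1 livers it was lost as well without a filter on low counts (adjusted p = 0.0983) and in the fit of the compared groups alone (0.0927).

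**Figure D4:**
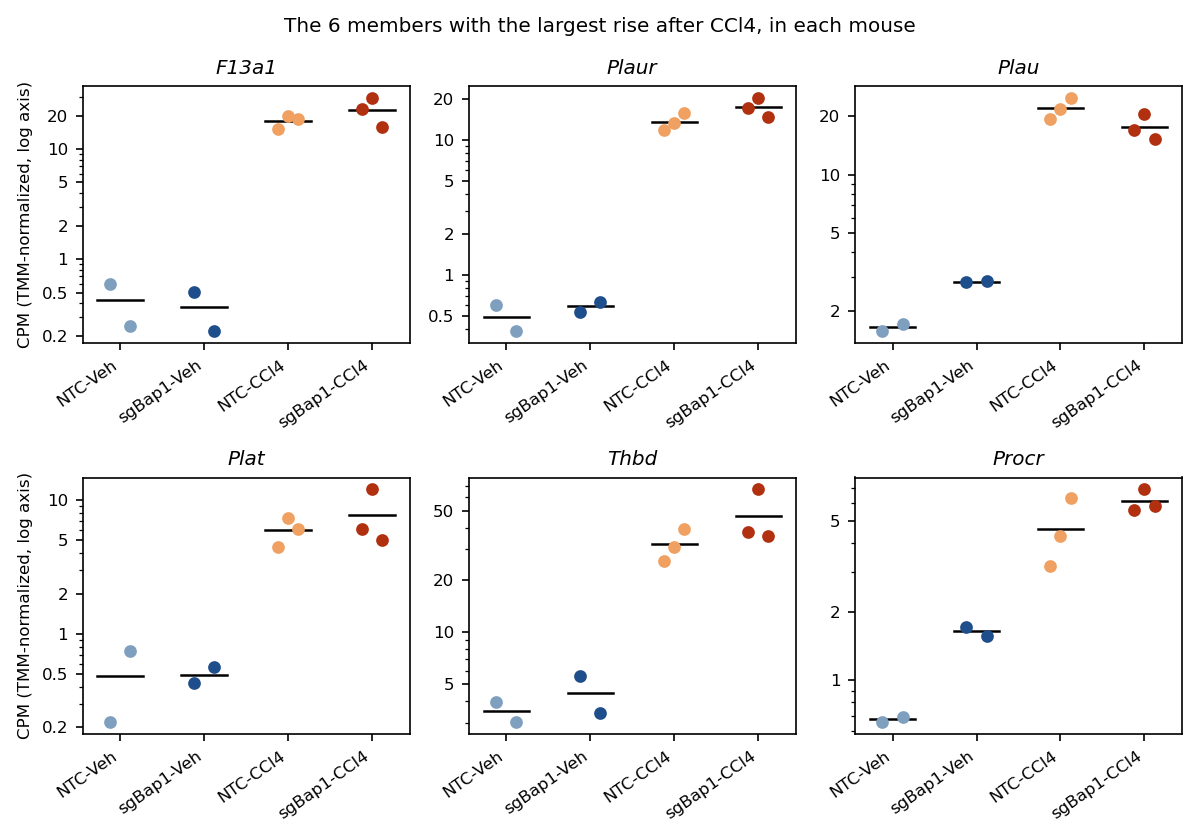
CPM on log axes of the 6 genes with the largest rise, in each mouse (points) of the 4 groups, with the group mean as a line. For every gene all CCl4 mice lie above all vehicle mice, as for Plau with 15.3 to 24.9 against 1.58 to 2.84 CPM, and the sgBap1-Veh mice lie above the NTC-Veh mice for Plau and Procr.

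At the vessel wall, the thrombin receptor F2r, which passes the thrombin signal into cells, had 10.9 to 16.3 CPM in vehicle and 17.0 to 31.6 CPM in CCl4 mice. It rose by 0.84 in NTC livers (SE 0.26, adjusted p = 0.0216) and had 0.63 in sgBap1 livers (SE 0.26, adjusted p = 0.0637). The NTC call was lost without NTC-Veh replicate 1 (log2 fold change 0.99) or 2 (0.71) or NTC-CCl4 replicate 2, and without a filter on low counts (adjusted p = 0.0659). Von Willebrand factor (Vwf), which tethers platelets and carries factor VIII, had 8.25 and 7.65 CPM in NTC-Veh mice, 8.15 and 5.17 in sgBap1-Veh, 9.21, 6.43 and 9.01 in NTC-CCl4 and 12.9, 18.7 and 8.76 CPM in sgBap1-CCl4 mice. Its log2 fold change was 0.05 in NTC (SE 0.31, adjusted p = 0.915) and 1.01 in sgBap1 livers (SE 0.32, adjusted p = 0.023). The sgBap1 call was lost without sgBap1-Veh replicate 2 (log2 fold change 0.73). It was also lost without a filter on low counts (adjusted p = 0.0575) and in the fit of the compared groups alone (0.0558). The difference between genotypes, 0.96 (SE 0.44), had an adjusted p of 0.493.

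The vitamin K cycle activates factors VII, IX, X and prothrombin and proteins C, S and Z by carboxylation. Its reductase Vkorc1, the target of warfarin, had 139.9 and 126 CPM in NTC-Veh mice, 139.6 and 141 in sgBap1-Veh, 49.6, 53.7 and 50.3 in NTC-CCl4 and 48.7, 37.6 and 50.3 CPM in sgBap1-CCl4 mice. It fell by 1.37 (SE 0.12, adjusted p = 8.59e-06) in NTC and 1.62 (SE 0.12, adjusted p = 3.44e-06) in sgBap1 livers, although 44.7% of its stretches of 50 bases also occur in the overlapping model Gm21974. The carboxylase Ggcx itself had 64.2 to 75.6 CPM in vehicle and 48.1 to 66.8 CPM in CCl4 mice. Its log2 fold change was −0.17 in NTC (SE 0.12, adjusted p = 0.261) and −0.34 in sgBap1 livers (SE 0.12, adjusted p = 0.0309). The sgBap1 call was lost without sgBap1-Veh replicate 1 (−0.22) or sgBap1-CCl4 replicate 2 (−0.25, adjusted p = 0.0849) or 3 (−0.32, 0.0719). It was also lost without a filter on low counts (adjusted p = 0.0505) and in the fit of the compared groups alone (0.082). With library size alone Ggcx was above 0 in both genotypes (0.31 and 0.13).

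The Bap1 guide alone, which lowered but did not remove Bap1 RNA, left the 36 genes without a call by edgeR. In vehicle livers sgBap1 against NTC gave 0 of 36 by edgeR, against 0.523% of all genes, and 5 at an unadjusted p under 0.05, against 12.6% of all genes. Their median log2 fold change was −0.01, against 0.02 over all genes. The 5 genes were Plau (0.77, SE 0.20, adjusted p = 0.122), Procr (1.29, SE 0.33, adjusted p = 0.126), Pros1 (−0.26, SE 0.11), Fga (−0.50, SE 0.22) and F8 (0.38, SE 0.17). DESeq2's Wald test called Procr (1.30, adjusted p = 0.0295, over alternatives from 0.0295 to 0.387) and Plau (0.78, adjusted p = 0.0468, over alternatives from 0.0468 to 0.369). For both genes each sgBap1-Veh mouse lay above each NTC-Veh mouse, and for the 3 fibrinogen chains each lay below, at log2 fold changes of −0.40 to −0.50 and adjusted p of 0.379 to 0.515. With 2 mice per group such separation was common among the 36. F5, F8, F10, F11, F12, Kng1, F13b, Pros1, Proz, Serpinc1, Plg and Serpinf2 also separated without a call. How often it occurs over all genes was not counted, so it is not read as a difference. Kupffer cell and macrophage markers moved with Plau and Procr: all 6 were higher in sgBap1-Veh mice at an unadjusted p under 0.05 (median 1.06), of which Csf1r was called (1.06, SE 0.18, adjusted p = 0.048). This was not particular to that list. The 4 monocyte markers were also higher (median 0.71), 2 of them at an unadjusted p under 0.05. Of the 6 endothelial markers 5 were higher and 1 lower, with 2 of the higher ones at that level. None of these monocyte and endothelial markers was called. The part of these cells was not tested.

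Under CCl4 the same contrast again gave 0 of 36 by edgeR, against 0.253% of all genes, and 0 by DESeq2's Wald test. At an unadjusted p under 0.05 there were 5, against 13.4% of all genes, and the median log2 fold change was −0.09, against 0.00 over all genes. These were F8 (−0.38, SE 0.13, adjusted p = 0.258), Plau (−0.32, SE 0.12), Plaur (0.36, SE 0.15), Vwf (0.72, SE 0.27) and Ggcx (−0.24, SE 0.11). For each of the 5 the mice of both genotypes overlapped. The only gene of the 36 without overlap was Hrg, at 463, 316 and 487 CPM in sgBap1 against 522 to 533 CPM in NTC mice, with an adjusted p of 0.399. The share of all genes without overlap was not counted, so the separation of Hrg is not read as a difference.

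The interaction asks whether CCl4 acted differently in the 2 genotypes. No gene of the 36 passed by edgeR, as no gene (0%) of the 17015 did, and 2 had an unadjusted p under 0.05, against 10.6% of all genes. They were Plau, whose rise was smaller in sgBap1 livers (interaction −1.10, SE 0.23, adjusted p = 0.106), and F8, given above. Plau was called by DESeq2's Wald test (−1.11, adjusted p = 0.0118) and without a filter on low counts (−1.08, adjusted p = 0.0429), with adjusted p from 0.0118 to 0.282 over all alternatives. In Plau the higher sgBap1 level in vehicle mice and the lower one under CCl4 both enter this value. The 6 Kupffer cell and macrophage markers were likewise below 0 in the interaction, all at an unadjusted p under 0.05 (median −1.15) and none called. So were the 4 monocyte markers (median −0.635), of which 2 had an unadjusted p under 0.05 and none was called. The part of these cells was not tested. The comparisons share groups of mice, so their values are not independent.

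**Figure D5:**
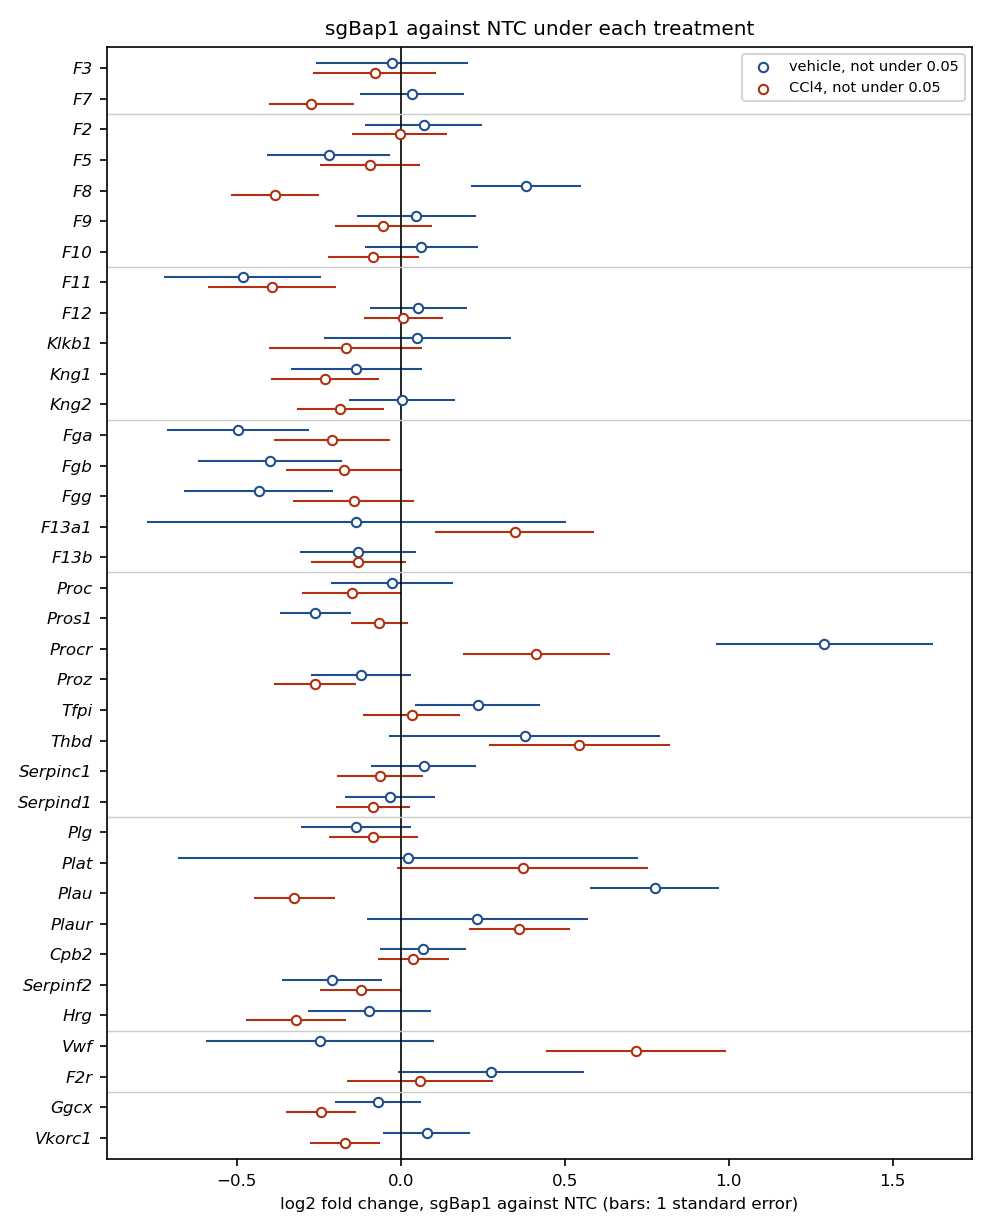
Log2 fold change of sgBap1 against NTC for the 36 genes in vehicle (blue) and CCl4 (red) livers, with bars of 1 standard error and all points open because none has an adjusted p under 0.05. Procr (1.29) and Plau (0.77) lie farthest to the right in vehicle livers, and for several genes, Plau, F8 and Vwf among them, the points under CCl4 lie on the other side of 0.

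Other genes of the pathway, from a list of 34 of which 27 could be tested, rose more often than they fell after CCl4, with 14 higher and 4 lower in NTC and 13 higher and 8 lower in sgBap1 livers. Their median log2 fold change was 0.55 in NTC and 0.66 in sgBap1 livers. None was called by edgeR between genotypes or in the interaction, where 5, 3 and 4 of the 27 had an unadjusted p under 0.05 in vehicle livers, under CCl4 and in the interaction, against 12.6%, 13.4% and 10.6% of all genes. The counts after CCl4 stand beside 27.5% of all genes higher and 26.3% lower in NTC livers, and 29% and 27.7% in sgBap1 livers. Some of the 27 passed the filter on low counts only through the CCl4 mice. In vehicle mice Serpinb2 and Serpina5 had 0 to 2 counts and F2rl1 had 3 to 16. Such genes could enter only as higher, so the excess of rises is partly set by the filter and is not read as a result.

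Of the inhibitors and receptors of fibrinolysis outside the 36, 3 rose and 2 fell in NTC livers, and 3 rose and 3 fell in sgBap1 livers. The plasminogen receptor subunit S100a10 rose by 1.30 and 1.41 (SE 0.10), the clearance receptor Lrp1 fell by 0.62 and 0.60 (SE 0.15), and the contact inhibitor Serping1 fell by 0.59 and 0.85 (SE 0.14), in NTC and sgBap1 livers. Serpinb2, an inhibitor of urokinase, had no count in NTC-Veh mice and 14 to 23 counts in NTC-CCl4 mice, and at least 5.12-fold more CPM there than 3 counts per library would give. It had 2 counts and 0 in the sgBap1-Veh mice and 22 to 66 counts after CCl4, where it rose (adjusted p = 0.00144).

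Of 12 further regulators of coagulation, 5 rose and 2 fell in NTC livers, and 4 rose and 5 fell in sgBap1 livers. Annexin V (Anxa5), which covers the procoagulant lipid, rose by 2.02 in both genotypes (SE 0.11), and Ano6, the scramblase that exposes this lipid, by 1.96 and 1.39 (SE 0.19 and 0.18). Fgl2, a prothrombinase of immune cells, rose by 1.70 in NTC livers (SE 0.27) and had 0.66 in sgBap1 livers (SE 0.26, adjusted p = 0.0514). Adamts13, the protease that trims von Willebrand factor and is made by stellate cells, fell by 1.28 in NTC (SE 0.23, adjusted p = 0.000859) and 1.43 in sgBap1 livers (SE 0.23, adjusted p = 0.000388). Serpina5, the protein C inhibitor, had 2 counts in each NTC-Veh mouse and 0 in both sgBap1-Veh mice, against 7 to 20 counts after CCl4, and was called higher in both genotypes.

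Of 14 platelet genes and protease-activated receptors 8 could be tested. In both genotypes 6 of the 8 were called higher and none lower. Itga2b was not called in NTC livers (adjusted p = 0.0871). The platelet receptor genes Gp1ba, Gp1bb, Gp9 and Gp6 were too scarce to test, at 0.208 CPM or less in every mouse. The cells behind these rises were not tested. Thrombospondin (Thbs1) went from 0.817 to 1.65 CPM in vehicle to 47.3 to 175 CPM in CCl4 mice, a rise of 5.87 and 6.61 (SE 0.48 and 0.49). The platelet chemokine Pf4 rose by 3.44 and 3.15 (SE 0.39 and 0.38), the receptor F2rl1 by 2.86 and 1.85 (SE 0.46 and 0.43), and P-selectin (Selp) by 2.24 and 2.27 (SE 0.28). Thbs1, Selp, Pf4, Serpinb2, S100a10 and Ano6 were also highest in sgBap1-CCl4 replicate 2.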

How the data were processed

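Poly(A) RNA of 10 livers was sequenced from stranded TruSeq libraries. The authors aligned reads with STAR 2.7.6a to GRCm38 and quantified them with Salmon 1.4.0, and the values they deposited are estimated counts per gene, without normalization. Here they were rounded, filtered by filterByExpr (17015 genes), scaled by TMM and fitted as 1 model of 4 groups in edgeR 4.0.16 (R 4.3.3). Contrasts were tested two-sided by the quasi-likelihood F test, with standard errors taken as the fold change over the root of F and Benjamini-Hochberg adjustment, at 0.05, after the analysis was tested on simulated data. All 36 genes are named, and of other pathway genes at most 4 called per list and comparison, by size, except 1 that is not reported here. Members and lists were chosen with earlier results of these data known. Samples were grouped by their labels, and replicates were separate mice. Total counts were 3.3e+07 to 5.22e+07, so that 3 counts are at most 0.112 CPM. Alternatives were DESeq2 1.42.0 size factors or Wald test, library size alone, other filters, a replicate block, a fit of the compared groups alone, and leaving out mice in turn, where a lone mouse is assumed to vary like the other groups. Positions, exon lengths and shared stretches of 50 bases came from GENCODE vM21 and promoters from RefSeq (GRCm38.p6). Protein sequences were not used here. No batch is named in the sources used here.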

Additional observations from a re-analysis of the deposited data

Results flagged for a closer look

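For factor VIII (F8) every NTC-CCl4 mouse lay above every NTC-Veh mouse and every sgBap1-CCl4 mouse lay below every sgBap1-Veh mouse, although with library size alone the sgBap1 log2 fold change was 0.27 in place of −0.21. The difference between the responses was −0.765 on the log2 scale (SE 0.22), with an unadjusted p of 0.00497 and an adjusted p of 0.21 by edgeR, so the difference did not pass the test. Over the alternatives it ranged from −0.91 to −0.66, and its adjusted p from 0.0709 to 0.429.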

How the results depend on the processing

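The count of called genes among the 36 was 28 to 31 in NTC and 27 to 34 in sgBap1 livers after CCl4 over the alternatives, and 25 to 31 and 26 to 32 with a mouse left out. In sgBap1 against NTC vehicle livers it was 0 except for 2 by DESeq2's Wald test, and 0 with a mouse left out. For the interaction it was 0 except for 1 without a filter on low counts and 1 by DESeq2's Wald test, and 0 with a mouse left out. In sgBap1 against NTC under CCl4 it was 0 throughout.

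With library size alone these genes changed direction: Serpinf2 to 0.035 in NTC and 0.119 in sgBap1 livers and Ggcx to 0.309 and 0.132, beside genes not called, F11 (0.10 in NTC and 0.18 in sgBap1 livers) and F8 (0.27 in sgBap1 livers), as that scaling moves all log2 fold changes up.

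With the replicate number as a block, 28 and 29 genes were called after CCl4 and 0 in the other 3 comparisons. The numbers are not shown to pair the mice, since 1 of 13 pairs with the same number had a correlation of deviations above 0.1, over a range of −0.212 to 0.133.

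The share of counts of the 36 genes was 3.54%, 3.06%, 2.99% and 2.68% in the NTC and sgBap1 vehicle mice and the NTC and sgBap1 CCl4 mice, in this order, on TMM-scaled libraries, and 2.4%, 2.16%, 2.45% and 2.23% without Fga, against 2.89%, 2.51%, 3.4% and 3.06%. With a mouse left out it was 2.76% to 3.01%, 2.48% to 2.55%, 3.27% to 3.64% and 2.96% to 3.2%. On the TMM scale the CCl4 livers thus had the lower share.

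Over all genes the calls of sgBap1 against NTC in vehicle livers (89) became 47 with library size alone, 177 without a filter, 550 by DESeq2's Wald test, 1 with the block, 35 with only these groups and 0 to 150 with a mouse left out. Under CCl4 (43) they became 113, 481 and 3 without a filter, by the Wald test and with the block, and 1 to 49 with a mouse left out. For the interaction (0) they became 8 with library size alone, 103 without a filter, 413 by the Wald test and 0 to 12 with a mouse left out. The causes were not tested. Groups of 2 and 3 mice limit all comparisons.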
